A study of Mus musculus with 2 samples.

Results

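The genes described here are 10 that shape and renew mitochondria: Opa1, Mfn1 and Mfn2 of fusion, Dnm1l, Fis1 and Mff of fission, Ppargc1a, Tfam and Polg of biogenesis and mitochondrial DNA maintenance, and the outer membrane porin Vdac1. They were taken as a named list, found by gene name, and are 10 of the 55536 annotated genes that the gene tables hold. The RNA was total RNA of left cerebral cortex from adult female B6CASTF1/J mice aged 18 to 20 months, the first-generation cross of C57BL/6J and CAST/EiJ, sequenced from 300 ng with spike-in RNAs added. There was 1 group, with no treatment and no other age, sex or tissue beside it, so the levels are those of one tissue at one age. It held 2 libraries, biological replicates 1 and 2, from separate biosamples that share a single donor entry. The labels do not settle whether 1 or 2 animals gave the tissue, so the spread between the libraries may be technical.

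Mitochondria in neurons constantly fuse and divide. Fusion joins the outer membranes through the mitofusins and the inner membranes through OPA1, all large GTPases of the dynamin family. Division needs the cytosolic GTPase DRP1, encoded by Dnm1l, which is drawn from the cytosol to the outer membrane by adaptors such as MFF and constricts the organelle. New mitochondrial mass depends on PGC-1α, a transcriptional coactivator encoded by Ppargc1a, which acts through nuclear respiratory factors on genes such as Tfam, the packaging and transcription factor of mitochondrial DNA. That DNA is copied by the polymerase whose catalytic subunit is encoded by Polg.

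The 10 genes took 40834 of the 32504959 expected counts of replicate 1, and 28945 of the 24899781 of replicate 2. These are 0.126% and 0.117% of the counts on genes. Levels are given in TPM, which scales counts by transcript length and library size. Unless stated otherwise they come from the gene tables made from a transcriptome alignment. A second kind of table, made from the reads without an alignment and called alignment-free here, is set beside them. The labelled tissue was checked against marker genes. Excitatory neuron markers were abundant, Slc17a7 with 558 and 547 TPM and Camk2a with 1109 and 1188 TPM in replicates 1 and 2. Gabra6 of cerebellar granule cells and Hcrt of the hypothalamus had 0 counts in both libraries. Ttr of the choroid plexus was present, with 164 and 52 counts (6.69 and 2.84 TPM). Of the muscle genes, Acta1 had 154 and 106 counts and Ckm had 3 and 0.

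All 10 genes were expressed in both libraries, with mean levels between 17.5 and 229 TPM and a median of 65.2 TPM. The median of the 12844 nuclear protein-coding genes that reached 1 TPM in both libraries was 15.8 TPM. Vdac1 led at 229 ± 14.5 TPM (SD, n = 2), at percentile 98.2 of those coding genes. Mff (114 ± 0.318 TPM) and Fis1 (112 ± 11.1 TPM) followed, then Dnm1l (88.8 ± 5.59 TPM) and Mfn2 (80.8 ± 5.01 TPM). Polg (49.7 ± 0.933 TPM), Mfn1 (48.4 ± 5.67 TPM) and Opa1 (46.0 ± 1.89 TPM) lay close together, and Ppargc1a (20.6 ± 1.75 TPM) and Tfam (17.5 ± 2.93 TPM) were lowest, at percentiles 58.7 and 53.3 (SD, n = 2 throughout). In this order 4 pairs of neighbours had overlapping library values and do not differ beyond their spread: Mff and Fis1, Polg and Mfn1, Mfn1 and Opa1, and Ppargc1a and Tfam. Because the tissue was taken in bulk, fewer cells of a type and less RNA per cell cannot be told apart in any of these levels.

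**Figure D1:**
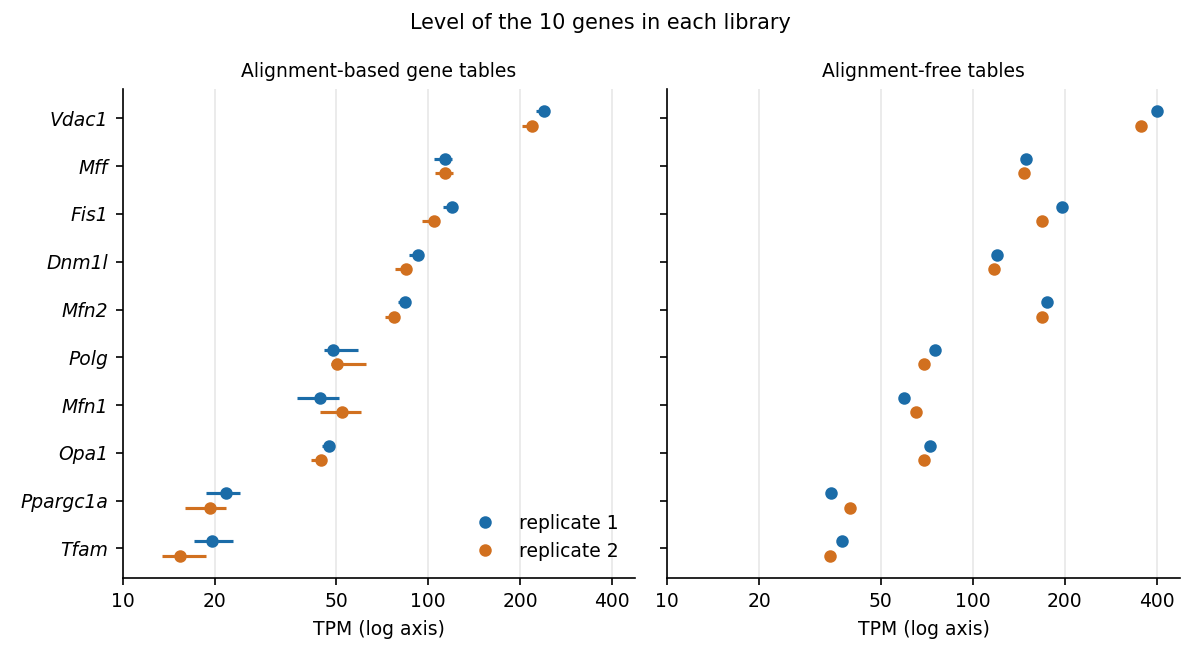
TPM of the 10 genes in replicate 1 and replicate 2, on a log axis, in the alignment-based gene tables on the left and summed over transcripts in the alignment-free tables on the right. Lines on the left are the intervals deposited with the posterior mean TPM, so a point can lie at their edge. Vdac1 is highest and Ppargc1a and Tfam are lowest on both sides, while Mfn2 lies above Mff and Dnm1l on the right and below both on the left.

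Among the fusion genes, Opa1 is the inner membrane GTPase that also keeps cristae closed. Opa1 lies at chr16:29579334-29654884 on the plus strand (mm10) and had 47.3 TPM from 5675 counts in replicate 1 and 44.7 TPM from 4051 counts in replicate 2. It lay below Mfn2 in both libraries, and its values overlapped those of Mfn1. The gene is known for alternative exons near its start that change how the protein is cut. Exon 4b and exon 5b, named as in the human gene, are shown here because the transcripts of the gene differ in them; both were read from GENCODE M21 transcripts, with the exon in capitals and 12 bases of the neighbouring exons in lower case. In human OPA1, exon 5b carries the site cut by the protease YME1L. The annotated exons were these, 5′ to 3′ on the plus strand of mm10.
Opa1 exon 4b, 54 bases, chr16:29588823-29588876: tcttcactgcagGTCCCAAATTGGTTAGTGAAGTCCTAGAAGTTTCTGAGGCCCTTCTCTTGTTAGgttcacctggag
Opa1 exon 5b, 111 bases, chr16:29597586-29597696: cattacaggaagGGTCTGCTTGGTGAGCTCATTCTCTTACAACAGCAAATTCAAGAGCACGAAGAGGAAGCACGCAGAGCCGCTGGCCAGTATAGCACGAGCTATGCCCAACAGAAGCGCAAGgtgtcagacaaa

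Both exons are whole numbers of codons, 18 for exon 4b and 37 for exon 5b, so neither shifts the reading frame. Reads over the exons themselves were not counted, and the transcripts compared also differ in length. Opa1-206, which skips both exons, is 6230 bases long, and Opa1-207, which holds exon 5b, is 3153 bases long. Exon use was taken as the summed TPM of the transcripts that hold an exon, divided by that of the transcripts that hold or skip it. Exon 4b held 4.29% and 6.65% of this TPM in replicates 1 and 2 of the alignment-based tables, and 6.68% and 6.11% in the alignment-free tables. These values rest on different transcripts in the alignment-based tables: Opa1-201 had 1.67 and 0 TPM, and Opa1-208, which is 888 bases long and holds exon 5b as well, had 0 and 2.33 TPM from 0 and 30.97 counts. Exon 5b held 18.8% and 12.9% in the alignment-based tables, and 20.6% and 13.6% in the alignment-free tables. In each of the 4 tables exon 5b was above exon 4b, with no overlap between the values of the 2 exons. Transcripts with neither exon made up 76.9% and 85.8% in the alignment-based tables, and 72.7% and 80.4% in the alignment-free tables.

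A single Opa1 transcript therefore carried most of the gene's TPM. Opa1-206, which has 960 codons and neither exon, held 73.7% and 79.7% of the TPM in replicates 1 and 2 of the alignment-based tables (76.7 ± 4.25%, SD, n = 2). In the alignment-free tables it held 68.6% and 73.1%. Opa1-207, which holds exon 5b, came next with 17.9% and 7.41%, and with 20.4% and 13.1% in the alignment-free tables. Its level was 8.45 TPM in replicate 1, with a deposited interval of 6.18 to 9.58, and 3.31 TPM in replicate 2, with an interval of 0.906 to 4.32. Those intervals do not meet, which was so for 1 of the 20 transcripts annotated for Opa1, Dnm1l and Ppargc1a, against 6.56% of the 77247 transcripts of coding genes at 1 TPM or more. The level of the intervals is not stated in the files.

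The mitofusins sit in the outer membrane and tether one mitochondrion to the next, and MFN2 also tethers mitochondria to the endoplasmic reticulum. Mfn1 (chr3:32529465-32579239, plus strand) had 44.4 TPM from 1829 counts in replicate 1 and 52.4 TPM from 1576 counts in replicate 2. Mfn2 (chr4:147873599-147904704, minus strand) had 84.3 TPM from 6569 counts in replicate 1 and 77.3 TPM from 4560 counts in replicate 2. Mfn2 lay above Mfn1 in each library, 1.90 times in replicate 1 and 1.47 times in replicate 2. The alignment-free tables gave a wider gap, 2.94 and 2.58 times, with Mfn2 at 175 and 168 TPM and Mfn1 at 59.7 and 65.4 TPM. The direction was shared by all 4 comparisons, and the size of the ratio depended on the kind of table.

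Among the fission genes, Dnm1l encodes the GTPase that constricts mitochondria and peroxisomes. Dnm1l (chr16:16312230-16358959, minus strand) had 92.7 TPM from 6654 counts in replicate 1 and 84.8 TPM from 4725 counts in replicate 2. It stood at 1.96 and 1.90 times Opa1 in the same libraries, and at 1.66 and 1.69 times in the alignment-free tables. The protein comes in several splice forms. An exon near its start, exon 3, adds residues to the GTPase domain and is known as enriched in brain, and exons 16 and 17 sit in the variable domain. They are shown because the annotated transcripts differ in them; capitals mark the exon, on the minus strand of mm10, from GENCODE M21 transcripts.
Dnm1l exon 3, 39 bases, chr16:16342697-16342735: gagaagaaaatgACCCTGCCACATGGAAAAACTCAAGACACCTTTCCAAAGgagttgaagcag
Dnm1l exon 16, 78 bases, chr16:16318764-16318841: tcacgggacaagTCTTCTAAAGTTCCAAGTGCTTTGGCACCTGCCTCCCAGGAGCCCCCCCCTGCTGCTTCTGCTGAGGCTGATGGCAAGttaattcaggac
Dnm1l exon 17, 33 bases, chr16:16318445-16318477: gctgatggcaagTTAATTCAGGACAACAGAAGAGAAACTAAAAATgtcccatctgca

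The 3 exons span 13, 26 and 11 codons and keep the frame. They differ in composition, with 46.2% G and C in exon 3, 59.0% in exon 16 and 27.3% in exon 17. Exon 17 had the largest share of TPM of the 3, 53.2% and 50.7% in the alignment-based tables and 63.1% and 63.2% in the alignment-free tables. Exon 16 had 43.6% and 39.8% in the alignment-based tables, and 47.7% and 48.8% in the alignment-free tables. In the annotation every transcript with exon 16 also holds exon 17, and transcripts with exon 17 alone made up 9.63% and 10.9%, or 15.4% and 14.4% in the alignment-free tables. Exon 3 had 33.9% and 37.2% in the alignment-based tables, but 19.9% and 24.1% in the alignment-free tables. The share of exon 3 counts Dnm1l-205 among the skipping transcripts, and those of exons 16 and 17 do not. Among the transcripts used for exons 16 and 17, exon 3 had 40.8% and 42.1%, and 20.4% and 24.9% in the alignment-free tables. For each of the 3 exons the gap between the kinds of table was thus larger than the gap between the libraries.

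Exon 3 was annotated in 1 transcript, Dnm1l-202, which holds neither exon 16 nor exon 17, so the tables have no entry for a form with exon 3 and either of the others. Dnm1l-202 has 712 codons and held 32.3% and 35.2% of the TPM in the alignment-based tables, and 19.1% and 23.0% in the alignment-free tables. Dnm1l-203, with exons 16 and 17, held 34.5% and 33.2%, and 44.7% and 45.1% in the alignment-free tables. Its annotated reading frame has 587 codons, fewer than that of Dnm1l-202 although it holds exons 16 and 17. Dnm1l-203 was the leading transcript in 3 of the 4 tables and Dnm1l-202 in the alignment-based table of replicate 2. The 699-codon form with none of the 3 exons, Dnm1l-201, held 4.71% and 5.98%, and 15.5% and 11.0% in the alignment-free tables.

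The 3 other named Dnm1l transcripts also differed between tables. Dnm1l-205, of 1074 bases, held 16.3% and 10.9% of the TPM in the alignment-based tables, against 2.52% and 3.19% in the alignment-free tables. Dnm1l-207 held 7.63% and 8.67% in the alignment-based tables, against 2.60% and 13.3% in the alignment-free tables. Dnm1l-204 held 0% and 0.413% in the alignment-based tables, against 11.8% and 0.00742% in the alignment-free tables. For Dnm1l-204 and Dnm1l-207 the alignment-free values of the libraries differ more than those of any exon share above. The TPM of the whole gene was steadier, at 120 and 117 in the alignment-free tables.

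**Figure D2:**
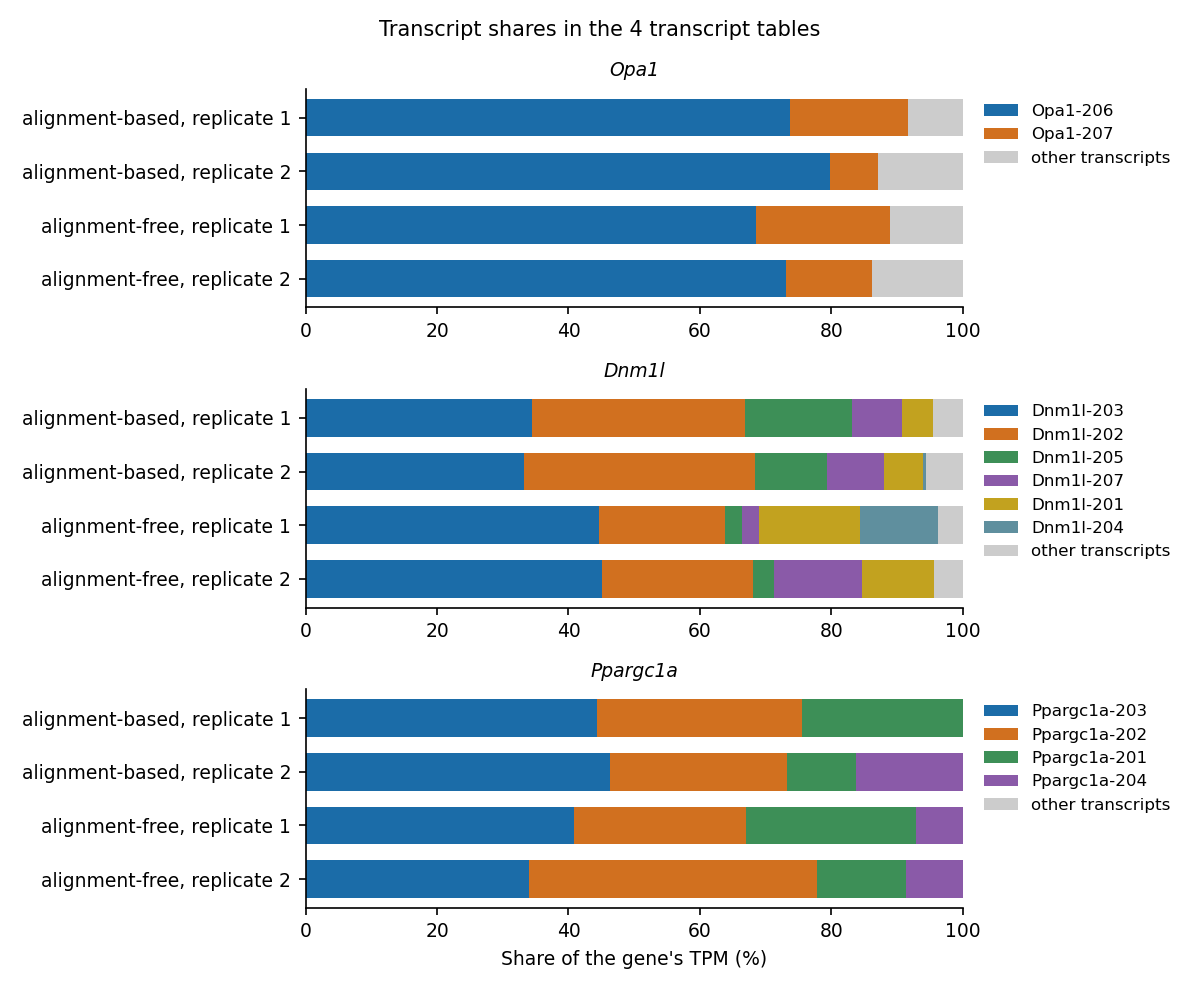
Share of each gene's TPM (%) held by its transcripts, for Opa1, Dnm1l and Ppargc1a, with 1 bar for each library and kind of table. Transcripts with 10% or more in any bar are coloured and the rest are grey. Opa1-206 fills 68.6% to 79.7% of each bar, whereas the leading Dnm1l and Ppargc1a transcripts stay under 50% and the division of the rest changes between the bars.

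Mff and Fis1 of the outer membrane were each more abundant than Dnm1l, whereas Mief1 (14.6 and 16.3 TPM) and Mief2 (8.51 and 8.56 TPM), which encode further outer membrane receptors of DRP1, were lower. Mff, a tail-anchored receptor of DRP1, lies at chr1:82724890-82752394 on the plus strand and had 113.5 TPM from 3362 counts in replicate 1 and 114.0 TPM from 2576 counts in replicate 2. These values nearly coincide. Fis1, a small outer membrane protein that recruits the fission machinery in yeast and has a more limited part in mammals, lies at chr5:136953275-136966234 on the plus strand. It had 120 TPM from 1981 counts in replicate 1 and 104 TPM from 1309 counts in replicate 2. Fis1 was above Mff in replicate 1 (1.06 times) and below it in replicate 2 (0.916 times). In the alignment-free tables Fis1 was above Mff in both, at 1.32 and 1.14 times. The Mff locus also holds Gm28941, an intronic transcript of the same strand with 27 and 34 counts, which is small beside the counts of Mff.

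Among the biogenesis genes, Ppargc1a (chr5:51454250-51567726, minus strand) had 21.9 TPM from 1806 counts in replicate 1 and 19.4 TPM from 1223 counts in replicate 2. It was the highest of the 3 genes of its family: it stood at 2.24 and 1.53 times Ppargc1b and at 1.96 and 1.40 times Pprc1, which encode the related coactivators PGC-1β and PRC. All 4 ratios were above 1, and so were those of the alignment-free tables, from 1.67 to 2.68. They rest in part on Ppargc1a-202, a 488-base transcript with 6.81 and 5.23 TPM from 59.7 and 34.3 counts. In the alignment-free table of replicate 2 it gave 17.3 of the 39.6 TPM of Ppargc1a, where Ppargc1b had 23.7 TPM. The ratios were not recomputed without it. The gene has alternative first exons and an alternative splice acceptor. With the acceptor, 31 more bases enter the message and a stop codon comes early, which gives the short form known as NT-PGC-1α. These bases and both coding starts are shown, on the minus strand of mm10 and from GENCODE M21 transcripts, since the shares that follow rest on them. Capitals mark the 31 added bases in the first line, and the coding part of the first exon in the others.
Ppargc1a acceptor extension, chr5:51490091-51490121: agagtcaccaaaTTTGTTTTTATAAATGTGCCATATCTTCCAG
Ppargc1a-203 coding start, chr5:51553735-51553782: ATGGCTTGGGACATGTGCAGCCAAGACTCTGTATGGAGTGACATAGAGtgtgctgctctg
Ppargc1a-202 coding start, chr5:51567630-51567665: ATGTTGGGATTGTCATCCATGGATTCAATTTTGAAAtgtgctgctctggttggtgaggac

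The stop codon TAA begins at base 11 of the extension and follows 270 codons in Ppargc1a-201, against 797 codons in the full-length Ppargc1a-203. Both coding starts run into the same second exon, whose first bases are the lower-case letters. The extension held 35.5% and 36.5% of the TPM of transcripts that use either acceptor in the alignment-based tables, and 44.7% and 39.5% in the alignment-free tables. The share that carried the early stop was 35.5% or more in every table, with values no more than 9.17 percentage points apart. It rests on Ppargc1a-201, with 354 and 99.7 expected counts, and Ppargc1a-204, with 0 and 125, against 1392 and 964 for Ppargc1a-203. The deposited intervals of Ppargc1a-201 were wide, 1.77 to 5.81 TPM in replicate 1 and 0.0173 to 3.75 TPM in replicate 2. Those of Ppargc1a-204 were 1.86e-05 to 3.06 TPM and 0.769 to 5.46 TPM. The annotation gives both transcripts with the extension the class of nonsense-mediated decay, and the tables do not show whether a protein is made from them.

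Full-length Ppargc1a-203 held 44.4% and 46.3% of all Ppargc1a TPM in the alignment-based tables, and 40.8% and 34.0% in the alignment-free tables. Ppargc1a-201, from the same start and with the extension, held 24.4% and 10.4%, and 25.8% and 13.6% in the alignment-free tables. Ppargc1a-204, from the upstream start and with the extension, held 0% and 16.3%, and 7.16% and 8.57% in the alignment-free tables. The extension share was alike in both libraries of the alignment-based tables, and its division between these transcripts was not. Annotated loci of the same strand that still await experimental evidence and lie inside Ppargc1a had few counts: Gm42614 had 5 and 10, Gm42615 had 13 and 24, and Gm43605 had 15 and 15.

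The upstream start lies 13804 bases from the downstream one and is known from skeletal muscle as the start of further PGC-1α forms. Its transcripts, Ppargc1a-202 and Ppargc1a-204, held 31.2% and 43.3% of the TPM of Ppargc1a in the alignment-based tables, and 33.5% and 52.3% in the alignment-free tables. Much of this came from Ppargc1a-202, which is 488 bases long and for which 59.7 and 34.3 expected counts gave 31.2% and 27.0% of the TPM. The alignment-free estimate was 25.5 and 36.8 counts, which gave 26.3% and 43.7%. With transcripts under 1000 bases left out, the upstream start held 0% and 22.3%, and 9.71% and 15.2% in the alignment-free tables. As a share of counts it held 3.31% and 13.1%, and 5.74% and 9.34%. The size of the upstream share therefore rests on a short transcript with few counts. Of the muscle genes, Acta1 stood at 5.07 and 4.67 TPM in replicates 1 and 2, and Ckm at 0.08 and 0 TPM. The part of muscle in the upstream share was not tested.

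**Figure D3:**
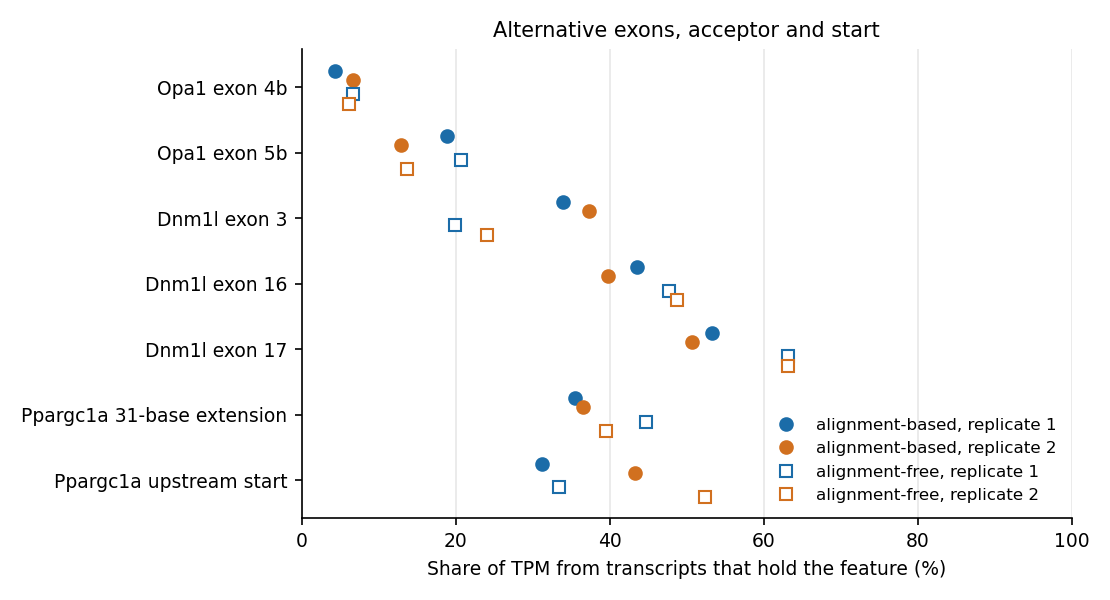
Share of TPM (%) from transcripts that hold each alternative exon, acceptor or start, among those that hold or skip it. Filled circles are the alignment-based tables and open squares the alignment-free tables, coloured by library. Exon 4b of Opa1 lies lowest in all 4 tables, exon 17 of Dnm1l reaches 63.2%, and the upstream start of Ppargc1a spreads widest, from 31.2% to 52.3%.

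Tfam, which wraps mitochondrial DNA into nucleoids and starts its transcription, lies at chr10:71225464-71238280 on the minus strand. It had 688 counts in replicate 1 (exact Poisson 95% interval 638 to 741) and 487 in replicate 2 (445 to 532), which gave 19.6 and 15.5 TPM. It is the member with the fewest counts, and the intervals cover counting error only. Its libraries differed more in TPM (log2 ratio 0.34) than in scaled counts (log2 ratio 0.12), and the effective length in the tables was 1558 bases in replicate 1 and 1869 in replicate 2. Polg (chr7:79446231-79466362, minus strand) had 49.0 TPM from 2662 counts in replicate 1 and 50.3 TPM from 2103 counts in replicate 2. Polg2, the gene of its accessory subunit, had 1.26 and 1.38 TPM from 50 and 43 counts. The TPM of Polg stood at 38.9 and 36.5 times that of Polg2, and at 36.8 and 24.4 times in the alignment-free tables. These are ratios of RNA and rest on few counts of Polg2. Polg overlaps Fanci on the opposite strand over 4034 bases, and Fanci had 26 and 14 counts.

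Vdac1 encodes the main channel for metabolites through the outer membrane and is also a docking site for hexokinase. Vdac1 (chr11:52360860-52389397, plus strand) had 239 TPM from 9608 counts in replicate 1 and 218 TPM from 6335 counts in replicate 2. It was above the other two porin genes in both libraries, at 2.21 and 2.37 times Vdac2 and at 2.90 and 2.94 times Vdac3. The counts of Vdac2 and Vdac3 are fractional, since part of their reads was shared out among similar sequences, which was the case for 0 of the 10 genes described here. Vdac1 stood at 12.2 and 14.1 times Tfam, the widest span within the set.

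The levels were then compared between the kinds of table. As deposited, the alignment-based TPM were 0.470 (Mfn2) to 0.774 (Mfn1) times the alignment-free TPM, and 6 of the 10 genes were over 1.5-fold lower. This was the case for 74.3% of 13033 coding genes, whose median ratio was 0.618, so the lower values are not particular to the set. Nuclear protein-coding genes held 44.0% and 44.2% of the TPM in the alignment-based tables, against 74.6% and 75.2% in the alignment-free tables. Rescaled to coding genes alone, the 10 ratios ran from 0.798 (Mfn2) to 1.31 (Mfn1) around a median of 1.05 for coding genes. None of the 10 was then past 1.5-fold either way, against 5.34% of coding genes. The order changed in the middle: in the alignment-free tables it ran Vdac1, Fis1, Mfn2, Mff, Dnm1l, Polg, Opa1, Mfn1, Ppargc1a, Tfam.

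Between the libraries the 10 genes differed little. The log2 ratio of replicate 1 over replicate 2, from scaled counts, ran from -0.16 for Mfn1 to 0.22 for Vdac1. It was above 0 for 8 genes and below 0 for 2 (Mfn1 and Polg). Its median was 0.12 for the 10 genes, 0.03 for coding genes at 1 TPM or more and -0.00025 for all genes tested. Fis1 (0.22), Ppargc1a (0.18) and Mfn2 (0.15) came near Vdac1, Tfam (0.12), Dnm1l (0.11) and Opa1 (0.11) lay between, and Mff was at 0.00. Of the 10 genes 0 passed 1.5-fold either way, against 14.3% of the 18246 genes tested and 3.06% of 12842 coding genes at 1 TPM or more. The median size of the ratio was 0.13 for the 10 genes, 0.13 for those coding genes and 0.17 for all genes tested. The count was also 0 with spike-in scaling, against 16.5% of genes, and with alignment-free counts, against 19.6%. At a smaller difference, a log2 ratio of 0.32, the count stayed at 0 in the main scaling, against 27.7% of genes. It was 1 with spike-in scaling, Mfn1 at -0.32, where 28.6% of genes lay lower by that much, and 1 with alignment-free counts, Fis1 at 0.33, where 9.78% lay higher. With 1 library on each side no test was possible, and no p-value is given.

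The sign of these ratios depends on where 0 is set. Scaling to the spike-in RNAs moved the median of all genes by -0.16 and left the place of the 10 genes among them as it was. With that constant shift 3 of the 10 (Fis1, Ppargc1a and Vdac1) lay above 0. With alignment-free counts Polg was at 0.03 and Mfn1 at -0.11. The intervals deposited with the TPM did not meet between the libraries for Dnm1l (86.9 to 93.5 and 78.2 to 85.1), Fis1 (112 to 122 and 95.4 to 107) and Vdac1 (225.6 to 238.9 and 202.8 to 218.1), and they overlapped for the other 7 genes. They did not meet for 16.1% of the 12844 coding genes. Markers of other cell types also differed between the libraries: the median log2 ratio was 0.30 over 3 inhibitory neuron markers, 0.33 over 3 oligodendrocyte markers, 0.33 over 3 microglial markers and 0.51 over 2 endothelial markers. The sums of these lists in replicates 1 and 2 were 282 and 238 TPM for inhibitory neurons, 452 and 391 TPM for oligodendrocytes, 55.1 and 50.5 TPM for microglia, and 30.7 and 21.3 TPM for endothelium. The 3 astrocyte markers summed to 1103 and 1044 TPM, with a median log2 ratio of 0.27. Gfap had 74.1 and 40.9 TPM and Aldoc 374 and 314 TPM, while Slc1a2 went the other way, with 655 and 689 TPM. The 4 excitatory markers summed to 3225 and 3177 TPM. The part of these cell types in the ratios of the 10 genes was not tested.

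**Figure D4:**
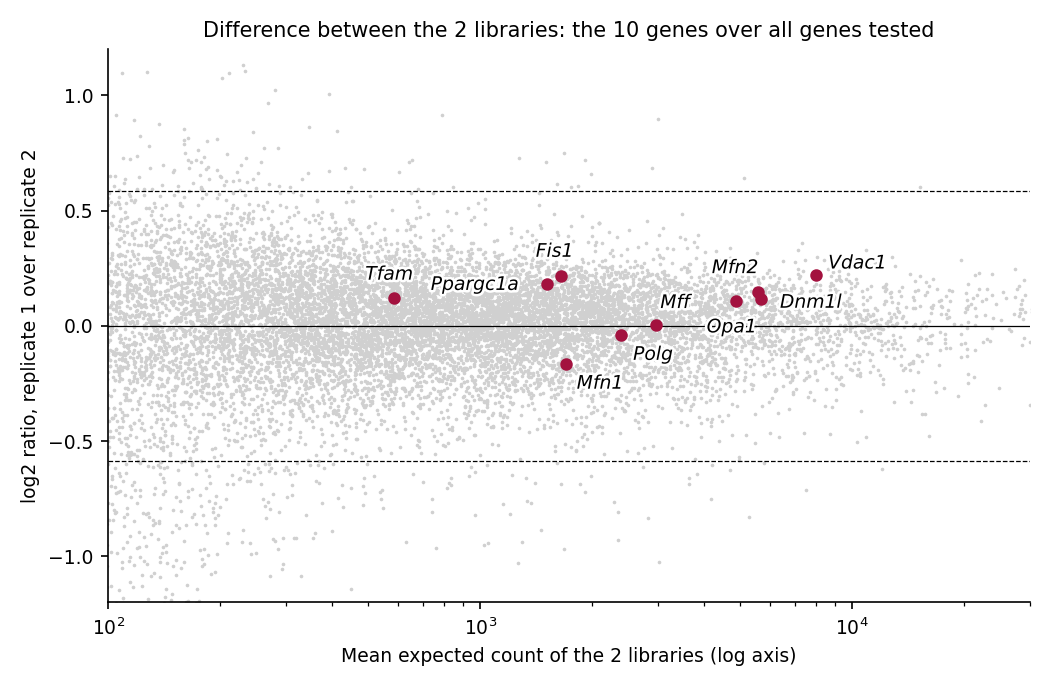
Log2 ratio of replicate 1 over replicate 2 against the mean expected count (log axis). Each grey point is a gene with a mean of 100 counts or more that lies within the axes, the 10 genes are dark red, and dashed lines mark 1.5-fold. The 10 genes lie between -0.16 and 0.22, inside the dashed lines.

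Further genes of the same pathways were described from 6 lists of 54 genes, of which 51 reached 1 TPM in both libraries. Their median was 26.1 TPM, below the 65.2 TPM of the 10 genes. In the list of inner membrane fusion and OPA1 processing, 9 of 9 genes reached 1 TPM, with a median of 34.1 TPM. The scaffold genes Phb2 (49.4 ± 0.742 TPM) and Stoml2 (45.4 ± 3.78 TPM) led it, close to Opa1. Of 11 fission receptors and partners 10 reached 1 TPM, with a median of 28.6 TPM. The formin gene Inf2 (58.3 ± 0.778 TPM) and the inner membrane gene Mtfp1 (39.1 ± 3.46 TPM) led it, both below Dnm1l, Mff and Fis1, and Mtfr2 stayed at 0.230 and 0.280 TPM (SD, n = 2 for each mean).

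The lists around the biogenesis genes were lower. Of the PGC-1 family and nuclear factors of biogenesis 7 of 8 reached 1 TPM, with a median of 9.67 TPM. The nuclear receptor gene Esrra (31.5 ± 0.933 TPM), whose product is a partner of PGC-1α, and Pprc1 (12.5 ± 1.91 TPM) led it, and Perm1, known from muscle, was at 0.140 TPM in both libraries. All 10 genes of mitochondrial DNA transcription and replication reached 1 TPM, with a median of 4.45 TPM. The RNA polymerase gene Polrmt (23.3 ± 0.467 TPM) and the single-strand binding protein gene Ssbp1 (13.7 ± 0.304 TPM) led it, and each lay below Polg in both libraries.

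The lists around the porin and of transport were the highest. Of porins and partners 7 of 8 reached 1 TPM, with a median of 116 TPM, led by the adenine nucleotide carrier gene Slc25a4 (236 ± 25.9 TPM) and the mitochondrial creatine kinase gene Ckmt1 (152 ± 6.10 TPM). Slc25a31, a carrier of the germ line, was at 0.0400 and 0.0300 TPM. All 8 genes of mitochondrial transport reached 1 TPM, with a median of 47.3 TPM, led by Snph (139 ± 7.97 TPM), which anchors mitochondria in axons, and the motor adaptor gene Trak1 (120 ± 24.9 TPM).

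Of the 52 list genes with enough counts, 1 passed 1.5-fold between the libraries and lay lower in replicate 1, against 10.7% of the 18246 genes tested and 1.66% of the 12842 coding genes at 1 TPM or more that lay lower by that much. This was Myo19, an actin motor of mitochondria, with 7.30 TPM from 468 counts in replicate 1 and 12.5 TPM from 567 counts in replicate 2 (log2 ratio -0.65). Over the 6 lists together 30 of the 52 ratios were above 0 and 22 below, with a median of 0.02. The median of all genes tested was -0.00025. In the porin list, the most one-sided of the 6, 7 of 7 measured ratios were above 0, with a median of 0.23. With the constant shift of spike-in scaling 5 of the 7 lay above 0 and the median was 0.07.

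**Figure D5:**
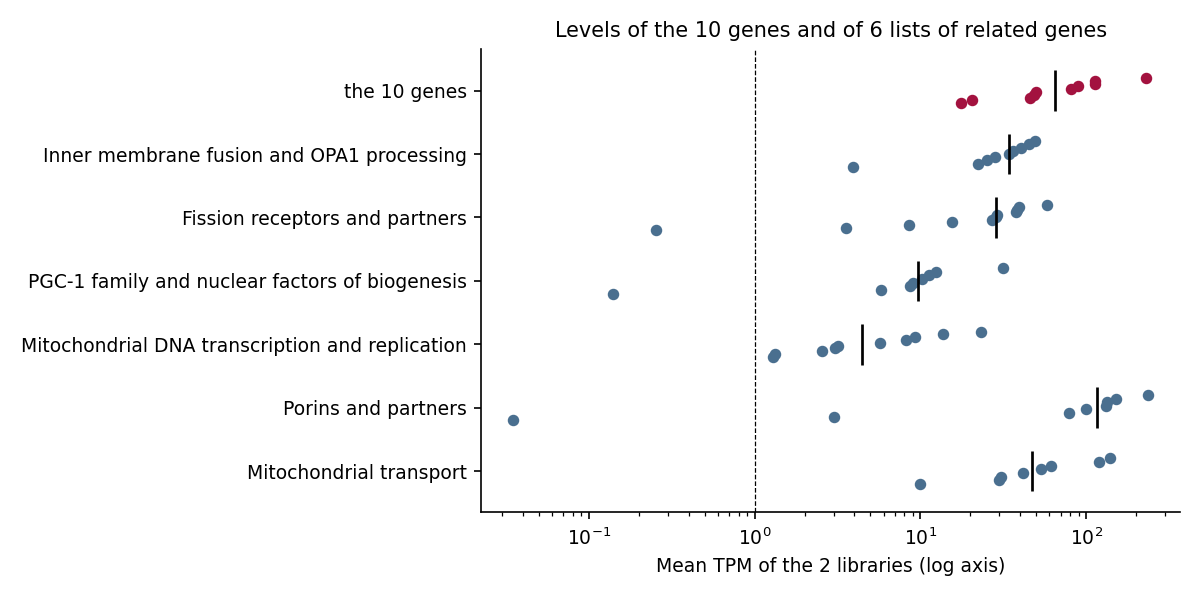
Mean TPM of the libraries on a log axis, with 1 point per gene, for the 10 genes in dark red and 6 lists of related genes in blue; black ticks are medians and the dashed line is 1 TPM. The 10 genes run from 17.5 to 229 TPM, and the mitochondrial DNA list has a median of 4.45 TPM, the lowest of the 6.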

How the data were processed

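For each library, 1 gene table and 2 transcript tables were used. Per the deposited descriptions, values refer to mm10 and GENCODE M21; the gene table and 1 transcript table derive from a transcriptome alignment and the other from the reads. The sources used here do not name the aligner or the quantifiers. The deposited alignment-based tables hold, per the file headers, expected counts, TPM, posterior mean TPM with interval bounds, and isoform percent. Estimated counts and TPM fill the deposited alignment-free tables. Whether counting used strand is not given, so antisense and overlapping genes cannot be told apart from the genes they overlap. Reads of a cross with CAST/EiJ were placed on the C57BL/6J reference.

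The gene tables hold 55536 genes, plus 26248 short-RNA entries and 97 spike-ins, which stayed out of library sizes (32357983 and 24798683 counts on genes). A count of 0 allows 3 counts, or 0.0927 and 0.121 CPM. Expected counts were rounded, genes with a mean of 10 counts kept, and log2 ratios of replicate 1 over replicate 2 taken from log2 CPM (prior count 2) after TMM scaling in edgeR 4.0.16; DESeq2 1.42.0 size factors were an alternative. A ratio past 1.5-fold counts as called. Steps were tested on simulated data. Transcript shares were recomputed from TPM, and exons and sequences come from GENCODE M21.

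The genes, lists and tests were chosen with earlier results of these data known. Named list genes are the 2 highest by mean TPM, those under 1 TPM in either library and those past 1.5-fold; named transcripts hold 10% of their gene's TPM in any table. Polg2, Ppargc1b, Vdac2, Vdac3, Mief1 and Mief2 were named outside this rule, with their values seen.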

Additional observations from a re-analysis of the deposited data

How the results depend on the processing

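The median level of the 10 genes was 65.2 TPM, and 95.4 in the alignment-free tables, 148 with TPM rescaled to nuclear protein-coding genes, 66.8 with posterior mean TPM and 64.8 to 66.7 with either library left out. For single genes these first 3 alternatives kept 8 of 30 levels within 1 SD and moved 22. Opa1-206 held 76.7% of Opa1 TPM, 70.8% in the alignment-free tables and 81.9% among protein-coding transcripts (73.7% to 79.7% with either library left out). Dnm1l-203 held 33.9%, with 44.9% and 35.7% under the same changes (33.2% to 34.5%), and Ppargc1a-203 held 45.4%, with 37.4% and 61.0% (44.4% to 46.3%). The upstream start of Ppargc1a held 37.2%, 11.2% with short transcripts left out and 8.18% as a share of counts, both chosen after seeing the data. Rescaling divides each level by the share of TPM on nuclear protein-coding genes, 44.0% and 44.2%, so its moves are a change of unit. The causes of the other moves were not tested.

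The count of the 10 genes past the fold threshold was 0 under each of the 7 alternatives, against 14.3% of all 18246 genes tested in the main setting. The 2-fold threshold could give no other count once 0 genes passed 1.5-fold. DESeq2 size factors and a prior count of 0.5 left the ratios almost as they were, with Opa1 at 0.11 in each. The number of list genes at the threshold was 51, and 43 at 5 TPM. No paired analysis was possible because there is 1 group, and a ratio of 1 library to 1 allows no library to be left out. Among the 10 genes Tfam has the fewest counts, and short and minor transcripts rest on few.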
